A study of Mus musculus with 2 samples.

Results

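Neuroblasts are the young, still migrating neurons that the adult rodent forebrain makes from stem cells lining the lateral ventricles. Among 9685 kept cells of GL261 tumour-bearing mouse brains, 111 barcodes were selected as neuroblasts on their own transcripts. The rule took barcodes with at least 500 detected mouse genes and at most 10% mitochondrial counts. It then asked for at least 5 unique molecular identifiers (UMIs, single captured mRNA molecules) of Dcx, Dlx1 and Dlx2 together. It allowed at most 1 UMI of the tumour genes Hmga2 and Met, at most 1 of the leukocyte gene Ptprc and at most 3 of the oligodendrocyte genes Mog and Mobp. Of these, 24 came from the library labelled wild type and 87 from that labelled knockout.

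Both libraries were made from brain tissue with GL261 glioma cells growing in it, taken at day 24, and each group is 1 library. One host group is labelled C57BL/6 wild type and the other Cacna1h-/-, which names a loss of the gene for the T-type calcium channel Cav3.2. GL261 is a mouse glioma line that brings its own copies of Cacna1h, and both groups carry it. The sources used here state neither the age of the animals nor how many went into a library. With 1 library per group there is no test and no p-value. All intervals are 95% intervals of counting error and do not cover the spread between cells or animals.

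In the textbook sequence, slowly dividing stem cells of the subventricular zone give rise to transit amplifying cells, which carry the receptor gene Egfr. These make neuroblasts, which travel in chains along the rostral migratory stream and become GABAergic interneurons of the olfactory bulb. Neuroblasts keep dividing while they migrate. Dlx homeodomain factors specify the GABAergic fate, doublecortin (Dcx) binds microtubules in migrating neurons, the SOX factor Sox11 drives early neuronal genes and stathmin 2 (Stmn2) belongs to growing axons.

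The 3 genes that define the population, and Sox11, lie at known places in the mouse genome, given here as spans of the GENCODE M21 annotation. Dcx is on chrX:143855842-143933311 on the minus strand, and Sox11 is on chr12:27334264-27342574, also on the minus strand. Dlx1 (chr2:71528113-71533981, plus strand) and Dlx2 (chr2:71543408-71546754, minus strand) face each other across 9426 bases, as paired Dlx genes do. Dlx6 and Dlx5 are arranged likewise on chromosome 6, with a gap of 9236 bases. The 200 bases before a RefSeq transcript start are printed below from RefSeq promoter windows on GRCm38.p6, 5′ to 3′ on the gene's strand. RefSeq starts differ from the GENCODE spans, so the Dlx1 window lies inside the span of its gene, the Dcx window overlaps it and the Sox11 window stands off from it. The windows are shown since these genes carry the selection and appear together in the same cells. Both strands were searched for 3 motifs, shown in capitals. The homeodomain core is TAATTA. The SOX core reads ACAAAG, and the third motif, bound by the general transcription machinery, reads TATAAA.
Dcx, chrX:143933220-143933419: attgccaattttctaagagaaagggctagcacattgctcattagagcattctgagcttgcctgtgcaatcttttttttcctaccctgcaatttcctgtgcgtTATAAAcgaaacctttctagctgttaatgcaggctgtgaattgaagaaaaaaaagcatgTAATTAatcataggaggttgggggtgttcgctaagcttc
Dlx1, chr2:71529245-71529444: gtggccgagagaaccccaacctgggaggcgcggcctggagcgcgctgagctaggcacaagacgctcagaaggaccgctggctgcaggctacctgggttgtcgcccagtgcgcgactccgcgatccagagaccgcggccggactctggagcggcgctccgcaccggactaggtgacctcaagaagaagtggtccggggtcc
Dlx2, chr2:71546755-71546954: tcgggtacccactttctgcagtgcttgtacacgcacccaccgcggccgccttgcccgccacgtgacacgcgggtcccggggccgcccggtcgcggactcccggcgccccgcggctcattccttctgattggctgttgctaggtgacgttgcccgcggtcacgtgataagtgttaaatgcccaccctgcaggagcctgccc
Sox11, chr12:27342719-27342918: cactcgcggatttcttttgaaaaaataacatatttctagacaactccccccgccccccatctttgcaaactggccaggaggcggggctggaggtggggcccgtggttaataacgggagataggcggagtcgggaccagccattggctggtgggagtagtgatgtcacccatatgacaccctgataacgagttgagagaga

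The Dcx window printed held 1 TAATTA and 1 TATAAA, and its GC content was 40%. RefSeq has a second Dcx start, whose overlapping window (chrX:143933125-143933324) held 1 TAATTA, 1 TATAAA and 1 ACAAAG, with a GC content of 45%. The windows of Dlx1, Dlx2 and Sox11 held none of the 3 motifs, with GC contents of 68.5%, 67.5% and 54%. Among 32851 mouse promoter windows of the same length, 3.73% held TAATTA, 13.3% held ACAAAG and 9.96% held TATAAA. These matches describe letters and say nothing of binding.

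The 2 libraries held 7382 barcodes with 54556333 mouse UMIs (wild type label) and 8369 barcodes with 103261208 (knockout label). The filters kept 3110 and 6575 cells. The libraries shared 21 barcode sequences, 7 of them among kept cells and 0 among neuroblasts. Neuroblasts had a median of 10481.5 UMIs (3371 to 22884) and 3752.5 genes under the wild type label. Under the knockout label the medians were 10824 UMIs (762 to 30658) and 3653 genes. The median mitochondrial share was 1.97% and 1.90%. Of the neuroblasts labelled wild type 0 were called doublets, against 1 of those labelled knockout, where 1 cell also met the marker gate for microglia. The targeted gene gave 1 UMI in the 24 neuroblasts and 4 in the 87. In the reference classes described below, Cacna1h was lower under the knockout label in oligodendrocytes (8 and 5 UMIs, 5.05 and 3.00 CPM, counts scaled to a total of 1000000 mouse UMIs) and B cells (2 and 6 UMIs, 6.46 and 1.81 CPM). It was higher under that label in macrophages (0 and 38 UMIs), T and NK cells (0 and 56), microglia (0 and 12), tumour cells (0 and 2) and endothelial cells (1 and 3). Counts of Cacna1h were thus not lower throughout under the knockout label, and each library is named by its label only. The sources used here do not state which part of Cacna1h is deleted, and 3′ counts outside that part would check nothing.

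Neuroblasts made up 24 of 3110 kept cells under the wild type label, or 0.772% (exact binomial interval 0.495 to 1.15). Under the knockout label they made up 87 of 6575, or 1.32% (1.06 to 1.63). The share under the knockout label was 1.71 times the other (1.08 to 2.82). Dissociation and capture set such shares as much as tissue content does, so they are shares of barcodes and not of cells in the brain.

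The threshold on Dcx, Dlx1 and Dlx2 fell in a nearly empty range. Among cells that met the other criteria, 22 (wild type label) and 76 (knockout label) had 10 or more of these UMIs, and 304 and 541 had 0. Just inside the threshold, 1 and 3 cells had 5 or 6 UMIs. Just outside it, 1 and 2 cells had 3 or 4. The cell just outside under the wild type label was shallow, with 2590 UMIs, and had Meis2 at 4633 CPM and Gad1 at 386 CPM. Another 1 and 11 cells reached 5 UMIs but failed a different criterion, with median depths of 19287 and 29778 UMIs. Of the 11 under the knockout label, 6 had more than 1 UMI of Hmga2 or Met and 6 more than 1 of Ptprc.

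Sox11 and Stmn2, markers that the rule did not use, were present as well. Sox11 was found in all 24 and all 87 neuroblasts, at summed levels of 2105 CPM (wild type label) and 2182 CPM (knockout label). Single cells ran from 879 to 5584 CPM around a median of 2018 in the first library, and from 410 to 4989 around 2045 in the other, so the ranges overlapped over most of their length. The highest level of Sox11 in any reference class was 39.7 CPM, in oligodendrocytes. The reference classes were tumour cells, microglia, macrophages, T and NK cells, B cells, oligodendrocytes and endothelial cells, each taken by its own marker gate. Stmn2 was at 1015 CPM with UMIs in 17 of 24 cells, and at 1468 CPM with UMIs in 76 of 87. No reference class passed 17.4 CPM for it. These levels describe the population and are no test of it, since the same cells were selected on co-expressed genes.

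The genes used by the selection had like levels in both libraries. Dcx was at 722 and 692 CPM, and its median over cells was 799 CPM under the wild type label (0 to 2457) and 728 CPM under the knockout label (0 to 2625). Dlx1 was at 579 and 602 CPM, with UMIs in 23 of 24 and 86 of 87 cells. Dlx2 was at 332 and 304 CPM, with UMIs in 23 of 24 and 76 of 87. After each cell was thinned to 2000 UMIs, Dcx was detected in 79.2% and 75.6% of neuroblasts. The same thinning left it in 0.118% of the 850 wild-type-labelled T and NK cells, which do not make doublecortin and so show the background. Since the cells were selected on Dcx, Dlx1 and Dlx2, these levels and shares follow from the rule and support nothing. Median depths before thinning were 10481.5 UMIs in the neuroblasts and 7668.5 in these T and NK cells.

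**Figure D1:**
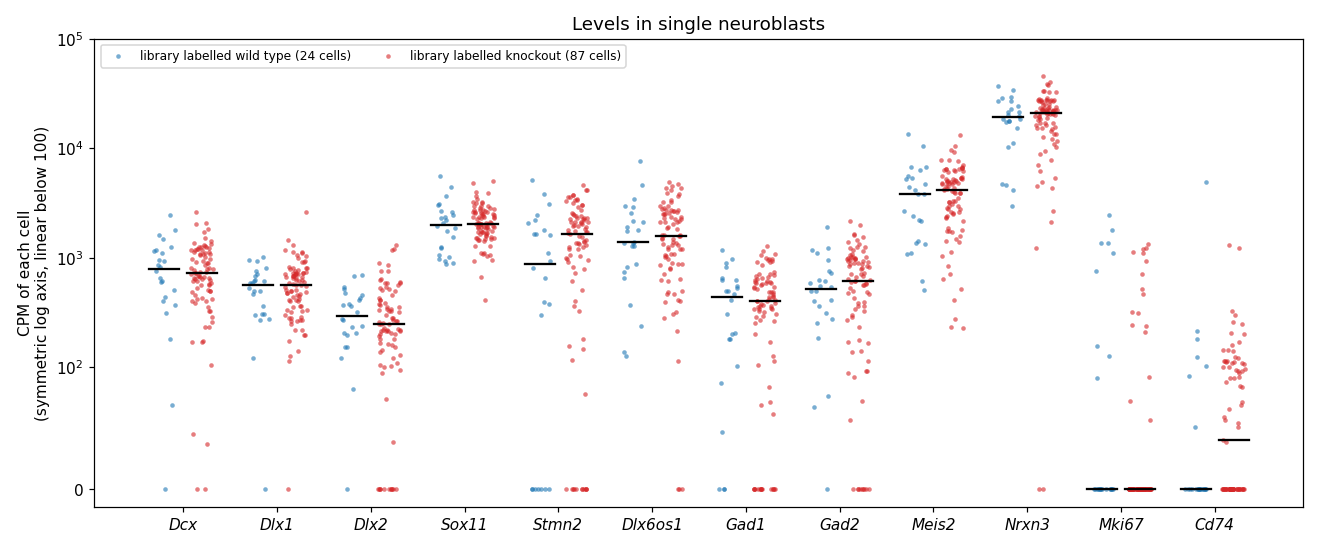
Each point is 1 neuroblast, by gene (x axis) and CPM within the cell (y axis, symmetric log), in blue for the 24 cells labelled wild type and red for the 87 labelled knockout. Black lines are medians. Sox11 and Meis2 were found in every cell, Mki67 only in some, and 1 blue cell had Cd74 at 4902 CPM.

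The cytoskeletal and RNA-binding genes of young neurons were present throughout. All 28 listed genes were measured, which means at least 50 UMIs over the neuroblasts of both libraries. Their summed level was 21403 CPM and 23852 CPM, 4.91 and 5.32 times that in the highest reference class, oligodendrocytes. Tubb3, the neuronal tubulin, was at 1012 and 1241 CPM. Igfbpl1, an insulin-like growth factor binding protein of immature neurons, was at 854 and 896 CPM and at most 13.2 CPM in the reference classes. The microtubule regulators Dclk1 (654 and 706 CPM) and Dpysl3 (600 and 660 CPM), the imprinted Nnat (1219 and 1017 CPM) and the neuronal RNA-binding protein gene Elavl4 (354 and 405 CPM) belonged to the same group. None of the 28 differed by 1.5-fold between the libraries.

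The population carried genes of the GABAergic lineage. Dlx1 and Dlx2 helped to select the cells and Dlx factors specify this fate, so the shares here describe the cells and test nothing. At least 2 UMIs of Dlx5, Dlx6, Dlx6os1, Gad1 and Gad2 together were found in 24 of 24 and 85 of 87 neuroblasts. The remaining 2 cells had 0 UMIs of Nrxn3 and Stmn2, 0 and 2 of Dcx, 38 and 48 of Sox11 and 25 and 22 of Egfr. They met the rule and are counted among the dividing neuroblasts below. Whether they are neuroblasts was not tested. Of the GABA-synthesising enzymes, Gad1 was at 329 and 383 CPM and Gad2 at 522 and 608 CPM. The long noncoding RNA Dlx6os1, which overlaps Dlx6 on the other strand, was at 1448 and 1625 CPM. The sources used here do not say whether the counting used strand, so reads of Dlx6os1 and Dlx6, or of Dlx1as and Dlx1, may not be told apart. The GABA transporter of synaptic vesicles, Slc32a1, was at 57.2 and 75.4 CPM.

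Transcription factors of the olfactory interneuron lineage were present. Meis2, a homeodomain factor of olfactory bulb neuroblasts, had UMIs in every neuroblast, at 3392 and 3616 CPM against at most 103 CPM in any reference class. Sp8 (107 and 131 CPM) and Sp9 (300 and 402 CPM) are zinc finger factors of olfactory interneuron precursors. Pax6, a factor of dopaminergic periglomerular cells, had UMIs in 11 of 24 and 39 of 87 cells. Etv1 was at 322 and 415 CPM. Pbx3, whose product partners Meis factors, was at 1365 and 1694 CPM and was carried by 14 of 24 and 51 of 87 cells only.

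Factors of the medial ganglionic eminence and of excitatory neurons were mostly near the floor. Nkx2-1 and Lhx6, which mark the medial ganglionic eminence, gave 0 UMIs in both libraries, and Lhx8 gave 0 and 1. A count of 0 among 24 and 87 cells still allows a share of cells with a UMI of up to 14.2% and 4.15% (exact binomial). The excitatory neuron genes Neurod1, Neurod2, Neurod6, Tbr1, Emx1, Slc17a6 and Slc17a7 gave 0 UMIs in both libraries. Selection on Dlx1 and Dlx2 bears on these counts as well, which are a description only. Prox1, which the glutamatergic list also holds, was at 118 and 136 CPM, and oligodendrocytes had it as high, at 165 CPM under the knockout label. Of 12 listed genes of striatal projection neurons 6 and 3 gave 0 UMIs, among them Drd1, Adora2a and Ppp1r1b. The list summed to 465 and 725 CPM, and 2 of its genes were measured. One of them, Foxp2, a factor of striatal and some olfactory neurons, was at 211 and 458 CPM.

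Terminal olfactory bulb identity was mostly absent. Th gave 0 and 1 UMI, Calb1 1 and 0, Calb2 0 and 7, and Pvalb 0 in both libraries. Of the 12 listed genes, Synpr (293 and 445 CPM) and Prokr2 (7 and 62 UMIs) reached 50 UMIs. Prokr2 is the receptor for prokineticin 2, a chemoattractant made in the olfactory bulb.

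Mature neuron genes were partly on. Snap25, a synaptic fusion protein, was at 129 and 185 CPM, and the noncoding RNA Meg3 at 661 and 800 CPM. Rbfox3, the gene of NeuN, gave 6 and 22 UMIs, and Camk2a, Nefl and Nrgn gave 0 in both libraries. The chloride exporter Slc12a5, which rises as neurons mature, gave 1 UMI in each library. The chloride importer Slc12a2 gave 11 and 35 UMIs.

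Of the synaptic adhesion genes, Nrxn3, a presynaptic neurexin gene, was at 18115 and 18583 CPM, with UMIs in 24 of 24 and 85 of 87 cells. It was at most 177 CPM in any reference class, in oligodendrocytes, so its mean over the libraries was 104 times that level. The sources used here do not say whether intronic reads were counted, and long genes such as Nrxn3, Erbb4 and Robo2 would gain from them.

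By the ratio of the mean level to that in the highest reference class, taken over genes at 100 CPM or more in both libraries, the leading gene was Insm1, a zinc finger factor of dividing neural progenitors, at 325 times. Among those that followed were Dlx2 (265 times), the LIM-only factor gene Lmo3 (220 times) and the GABA receptor subunit gene Gabrb2 (193 times). Grin2b, an NMDA receptor subunit gene, stood at 177 times, Foxp2 at 175 times and Dlx6os1 at 170 times. The axon guidance pair Robo2 and Slit1 stood at 104 and 94.1 times. This ranking describes the cells and tests nothing.

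Markers of other cell types were low. Of the tumour markers, 1 and 3 UMIs were found, as the rule required few. Pdgfra, Gja1, Aqp4 and Flt1 gave 0 UMIs in both libraries, and the lists for mural cells, ependymal cells and neutrophils were at 0 throughout. The oligodendrocyte list summed to 71.5 and 57.7 CPM and the microglia list to 82.2 and 61.5 CPM. In the astrocyte list Slc1a2 gave 33 and 156 UMIs, in 9 of 24 and 38 of 87 cells. Cd74, an MHC class II chaperone of antigen-presenting cells, gave 73 UMIs under the wild type label, of which 64 were in 1 cell. That cell also held all 61 UMIs of Ifitm1 and 10 of the 19 UMIs of B2m.

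MHC class I genes were far lower in neuroblasts than in every reference class. The 15 listed genes summed to 304 CPM (243 to 376) and 270 CPM (240 to 303). Oligodendrocytes, the lowest reference class, stood at 5231 and 7453 CPM, which is 17.2 and 27.6 times the neuroblast level. The cell with most Cd74 under the wild type label carried 48 of the 85 MHC class I UMIs there. Without the cell with most Cd74 in each library the sums were 139 CPM (97.7 to 191) and 261 CPM (231 to 294), so the order of the libraries turned. B2m, the invariant light chain, was at 67.9 and 82.0 CPM, and at 33.7 and 80.5 CPM without those cells, against up to 3154 and 3722 CPM in microglia. After thinning to 2000 UMIs per cell, B2m was detected in 16.7% (4.73 to 37.4) and 12.8% (6.56 to 21.7) of neuroblasts. The lowest reference share was again in oligodendrocytes, at 73.1% (60.9 to 83.2) and 56.5% (46.6 to 66.0). Before thinning, the neuroblast shares were 29.2% and 50.6%. The peptide transporter gene Tap1 gave 1 UMI in each library. H2-K1, H2-D1 and the H2-Q genes are near-identical in parts, so reads may be split among them.

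The summed level of interferon response genes was low in the same way. The 24 listed genes summed to 407 CPM (336 to 490) and 350 CPM (316 to 387) in neuroblasts. The lowest reference class, B cells, had 1844 and 2385 CPM, and tumour cells had 6904 and 11908 CPM. In 6 of the 7 reference classes the summed level was higher under the knockout label, endothelial cells being the exception (7932 and 7203 CPM). In neuroblasts the interval of the difference included 0 (log2 ratio -0.22, interval -0.52 to 0.10). Without the cell with most Cd74 in each library the sums were 341 and 348 CPM. Ifi27, a mitochondrial interferon-inducible protein gene, was the only member with 50 UMIs, at 122 and 146 CPM. The reference class with least Ifi27 had 47.2 and 50.2 CPM, so this gene did not share the low level of the sum. It gave 34 of the 114 and 157 of the 376 UMIs of the list in neuroblasts. Iigp1 gave 1 and 12 UMIs and Gbp2 0 and 5. RNA released by other cells reaches every droplet, and its part in these low levels was not tested.

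**Figure D2:**
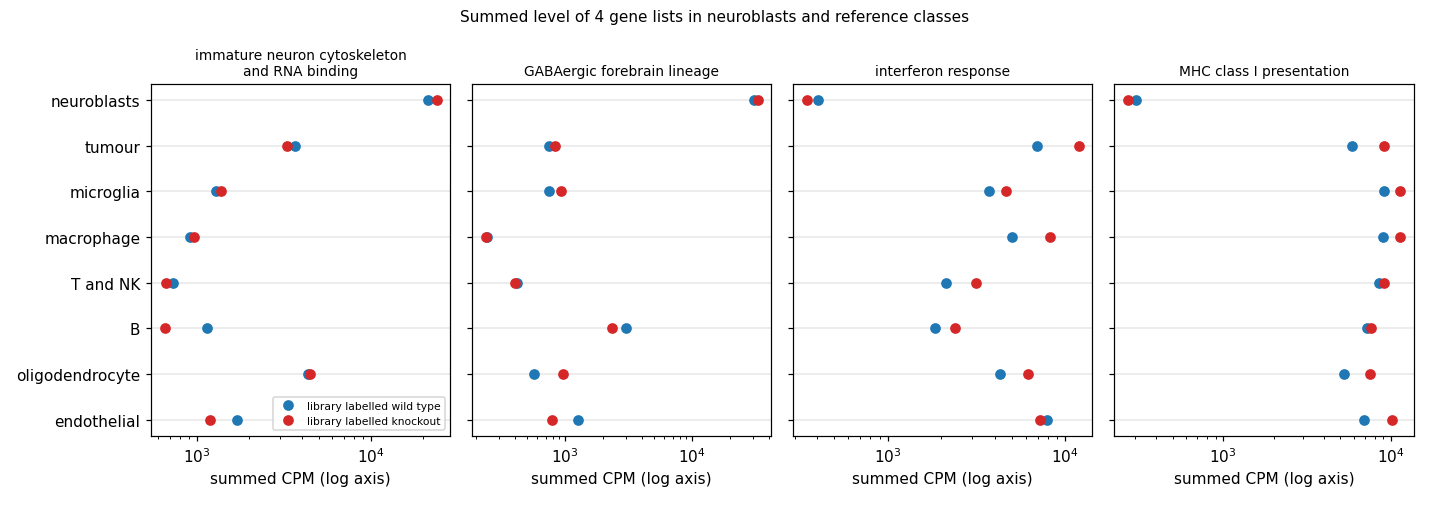
Summed CPM (x axes, log) of 4 gene lists in neuroblasts and 7 reference classes (y axis), with 1 point per library. Neuroblasts had the highest levels of the 2 neuronal lists and the lowest of the interferon (407 and 350 CPM) and MHC class I (304 and 270 CPM) lists. In the GABAergic list Nrxn3 gave 5068 of the 8544 neuroblast UMIs (wild type label) and 19953 of the 35201 (knockout label).

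Some neuroblasts were dividing. Cells with at least 5 UMIs over 20 genes of the G2 and M phases, such as Mki67, Top2a and Cdk1, were called dividing. These were 10 of 24 under the wild type label, or 41.7% (22.1 to 63.4). Under the knockout label they were 19 of 87, or 21.8% (13.7 to 32.0). The intervals overlapped. Below the threshold, 8 and 49 cells had 0 such UMIs, and 6 and 19 cells had 1 to 4, so cells near the cut were not rare. Of the cells below the threshold, 4 and 15 had at least 5 UMIs over 20 S phase genes. They count among the other cells, so leaving out dividing cells does not leave out all cells with S phase transcripts. After thinning to 5000 UMIs the dividing share was 10 of 23 (43.5%) and 15 of 84 (17.9%). Cells with S phase UMIs that were not called dividing were then 1 and 6. Dividing cells held more UMIs than the others, with medians of 15028 against 8865 and of 18988 against 9963.5.

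Dividing neuroblasts had higher levels of genes of an earlier lineage stage. Over all 5088 genes measured in both parts, 31.2% (wild type label) and 26.3% (knockout label) were at least 1.5-fold higher in dividing cells and 22.9% and 20.4% at least 1.5-fold lower, with median log2 ratios of 0.14 and 0.11. Egfr is the growth factor receptor gene of transit amplifying cells. It was at 219 CPM in dividing and 48.1 CPM in other cells under the wild type label. Under the knockout label these levels were 336 and 25.4 CPM, a log2 ratio of 3.73. Of the 123 Egfr UMIs of dividing cells there, 34 were in 1 cell. Another 25 and 22 were in the cells described above with 0 UMIs of Nrxn3. Without the dividing and the other cell with most Egfr the log2 ratio under that label was 3.69. Leaving out all of these cells was not tested. In the stem and transit amplifying list, 7 and 5 of 8 measured genes passed 1.5-fold upward in dividing cells and 1 and 0 downward. The median log2 ratio was 1.66 and 1.21. This list shares Mcm2 with the S phase list, and the part of Mcm2 was not tested. S phase genes were higher by medians of 1.80 and 3.27 on the log2 scale, with 13 and 14 of 14 past 1.5-fold.

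Maturation genes ran the other way. Of 7 measured mature neuron genes, 6 and 7 were at least 1.5-fold lower in dividing cells, against 22.9% and 20.4% of all genes, with median log2 ratios of -1.32 and -1.59. Syt1, the synaptic calcium sensor, gave 0 UMIs in the 10 dividing cells and 23 in the 14 others under the wild type label. Under the knockout label Syt1 was at 24.6 CPM in dividing and 342 CPM in other cells. Stmn2 was at 445 against 1725 CPM and at 558 against 1938 CPM. The genes that selected the cells are conditioned by the rule and are given as a description only, with Dcx at 445 against 1067 CPM and at 303 against 893 CPM, and Dlx2 at 367 against 289 CPM and at 377 against 266 CPM. Sox11 was close in both kinds of cell, at 2024 and 2206 CPM and at 2261 and 2141 CPM.

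Many GABAergic, migration and channel genes were also lower in dividing cells. In the GABAergic list 13 and 14 of 22 measured genes passed 1.5-fold downward, against 22.9% and 20.4% of all genes. In each library 1 passed upward. Gad1 was at 155 against 545 CPM and at 112 against 523 CPM. Of 24 measured migration genes, 16 and 18 were at least 1.5-fold lower and 1 and 0 higher, and Robo2 was at 425 against 1885 CPM and at 818 against 3466 CPM. Erbb4, the neuregulin receptor of migrating neuroblasts, was at 1006 against 4340 CPM and at 714 against 6910 CPM. Dcc, the netrin receptor, stayed within 1.5-fold, at 890 against 786 CPM and at 2313 against 1552 CPM. Of the 846 Dcc UMIs of dividing cells under the knockout label 454 were in 1 cell, and without the dividing and the other cell with most Dcc the levels were 1140 against 1153 CPM. Of 10 measured calcium channel genes, 8 in each library were at least 1.5-fold lower and 0 higher. Among all genes, those with the largest drops in both libraries included the adhesion gene Kirrel3 (2848 CPM in other against 51.6 CPM in dividing cells, and 968 against 21.9 CPM), Ank3, Tenm4, the neuronal zinc finger gene Myt1l and the calcium channel subunit gene Cacnb4. Of the 355 Kirrel3 UMIs in other cells under the wild type label 253 were in 1 cell, and without the top cell of each part the levels there were 907 against 37.4 CPM.

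The summed levels of stress and sterol genes were higher in dividing cells. Past 1.5-fold upward were 8 and 6 of 12 measured stress genes and 6 in each library of 10 measured sterol genes. Downward were 1 and 2 stress genes and 0 sterol genes. Over all genes measured in both parts, 31.2% and 26.3% passed upward and 22.9% and 20.4% downward. The 15 immediate early and stress genes summed to 7304 against 4123 CPM and to 6354 against 3990 CPM. The 17 sterol synthesis genes summed to 1399 against 706 CPM and to 1039 against 688 CPM.

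**Figure D3:**
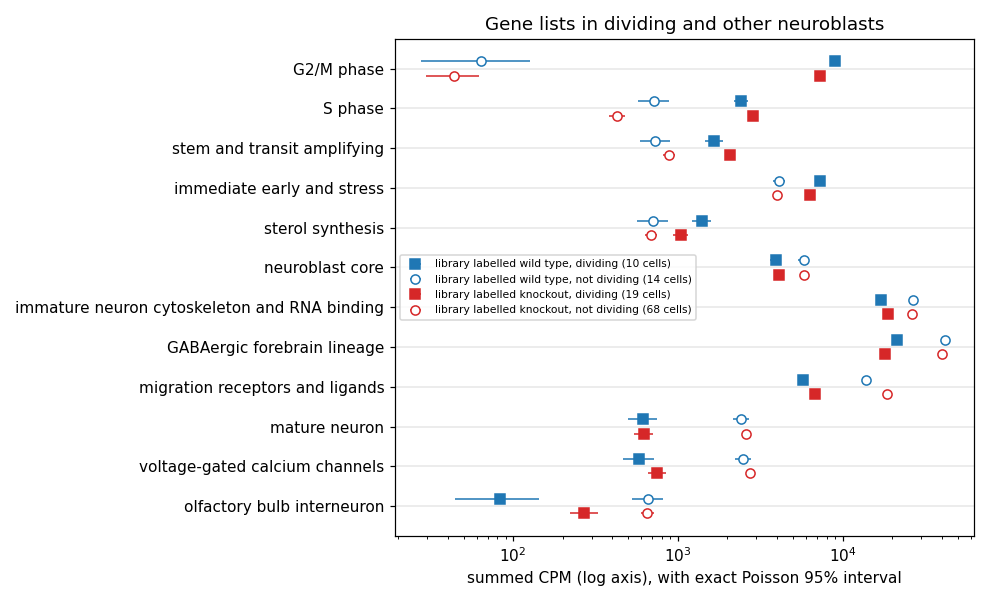
Summed CPM (x axis, log, with exact Poisson intervals) of 12 gene lists (y axis) in dividing neuroblasts (filled squares) and other neuroblasts (open circles), by library. Stem, S phase, stress and sterol lists were higher in dividing cells, and the neuronal, migration and channel lists lower. The G2/M list separates the cells because it defined them.

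Between the libraries, 5099 genes were measured in neuroblasts. The log2 ratio of CPM, with the knockout label over the wild type label, had a median of -0.06 over these genes. By size alone, 157 genes (3.08%) were 2-fold or more higher in the library labelled knockout, and 151 (2.96%) were 2-fold or more lower. For members of gene lists a bound of 1.5-fold was used, which 509 genes (9.98%) passed upward and 629 (12.3%) downward. Markers of dividing cells moved with this contrast, and their part in the lists below was not tested beyond leaving those cells out. Without dividing cells 3249 genes were measured, of which 184 (5.66%) passed 2-fold upward and 68 (2.09%) downward. At 1.5-fold these were 474 (14.6%) upward and 358 (11.0%) downward.

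Genes of the G2 and M phases were lower under the knockout label. Among the 19 measured in neuroblasts, 16 passed 1.5-fold downward and 0 upward, with a median log2 ratio of -0.98. This list defined the dividing cells, whose shares had overlapping intervals, and without those cells 0 of its genes were measured. Its summed level was also lower under the knockout label in every reference class but B cells (391 and 753 CPM). In tumour cells it was 3296 and 1783 CPM, and in neuroblasts 5011 and 2506 CPM. Mki67, the proliferation marker, was at 615 CPM in 9 of 24 cells and at 208 CPM in 17 of 87 (log2 ratio -1.57, interval -1.86 to -1.27). Of its UMIs under the wild type label 32.6% were in 1 cell. Without the cell with most Mki67 in each library the ratio was -1.31. Among the 12 genes with the lowest ratios, the mitotic genes were Kif20b, Ndc80, Cep55, Gas2l3, Diaph3, Cenpe, Mki67, Knl1 and Aspm, with log2 ratios from -1.81 to -1.50. Without the 2 cells with most UMIs in each library, the log2 ratio of Cenpe was -0.62. Cdc20, a late mitotic activator, had a ratio the other way (71.5 and 92.2 CPM), with an interval from -0.34 to 1.14. S phase genes had a median of -0.21, with 1 of 14 higher and 5 lower.

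Some immediate early and sterol genes were lower as well. Of 12 measured immediate early and stress genes 5 passed 1.5-fold downward and 0 upward, against 12.3% and 9.98% of all genes. The median was -0.33. Fosb was at 111 and 22.4 CPM and Egr1 at 826 and 443 CPM. Of 10 measured sterol genes 3 were lower and 0 higher, with a median of -0.27. Without dividing cells these medians were 0.13 and 0.11. The summed sterol level was 1090 and 807 CPM in neuroblasts, and it was lower under the knockout label in every reference class too. It was 748 and 267 CPM in tumour cells and 1151 and 1013 CPM in oligodendrocytes. The summed immediate early and stress level was lower under that label in every reference class but macrophages (7864 and 8124 CPM).

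Of the receptors and ligands that guide migration, 24 were measured. Of these, 10 passed 1.5-fold upward under the knockout label, against 9.98% of all genes, and 1 downward, against 12.3%. The other 13 passed neither way, and the median log2 ratio was 0.34. Without dividing cells 6 of 23 were higher, against 14.6% of all genes, and 2 were lower, against 11.0%, and the median was 0.10. Robo2, the Slit receptor, was at 1076 CPM with UMIs in 17 of 24 cells and at 2564 CPM in 75 of 87. Single cells ran from 0 to 5650 CPM with a median of 690 in the first library, and from 0 to 10626 CPM with a median of 2625 in the other, so the libraries overlapped while the medians stood apart. The log2 ratio of Robo2 was 1.25 (1.08 to 1.43) over all cells and 0.88 without dividing cells.

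Erbb4 followed Robo2 and its ligand Nrg1 did not. Erbb4 was at 2491 and 4799 CPM (log2 ratio 0.95, 0.83 to 1.06). Nrg1, neuregulin 1, was at 533 and 166 CPM (log2 ratio -1.68, -2.01 to -1.36), with 60 of its 149 UMIs under the wild type label in 1 cell. Without the cell with most Nrg1 in each library the ratio was -1.19, and without dividing cells it was -2.04. Nrg3 gave 25 UMIs in 5 of 24 cells and 11 UMIs in 3 of 87, too few to be measured.

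Other guidance genes were spread unevenly. Dcc was at 844 and 1812 CPM (log2 ratio 1.10), and 23.3% of its UMIs under the knockout label were in 1 cell. Plxna4, a semaphorin co-receptor gene, was at 575 and 1039 CPM, and Ephb1 at 39.3 and 92.2 CPM. Ncam1 (1608 and 1584 CPM), the carrier of polysialic acid on neuroblasts, and its sialyltransferase gene St8sia2 (186 and 170 CPM) stayed within 1.5-fold. The chemokine receptor gene Cxcr4 gave 3 and 4 UMIs, Reln 1 and 2, and Ntn1 0 and 3.

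Mature neuron genes had a median log2 ratio of 0.35. Against 9.98% of all genes, 2 of 7 were at least 1.5-fold higher. These were Syt1, at 82.2 CPM in 6 of 24 cells and 234 CPM in 30 of 87 (log2 ratio 1.51, 0.89 to 2.19), and Rab3a, at 32.2 and 90.3 CPM. Without dividing cells Syt1 had a ratio of 0.89, and the median over the 5 genes then measured was 0.68. In the GABAergic list 1 of 22 was higher and 1 lower, with medians of 0.25 over all cells and -0.01 without dividing cells. Dlx6 was the member that was higher (42.9 and 65.2 CPM) and Zfhx4 the one that was lower (150 and 89.4 CPM).

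The other genes with the highest ratios were unevenly carried. Ncam2, an olfactory adhesion gene, was at 157 CPM in 8 of 24 cells and 627 CPM in 41 of 87 (log2 ratio 1.99, 1.55 to 2.47), and 1.98 without dividing cells. Sgcd, a sarcoglycan gene, was at 64.3 CPM in 5 cells and 312 CPM in 43. Igfbp5 was at 53.6 and 174 CPM. Dlg2, a synaptic scaffold gene, gave 6 and 145 UMIs, and the cadherin gene Cdh20 gave 5 and 115. Both were higher in oligodendrocytes under the knockout label (444 and 343 CPM) than in neuroblasts (135 and 107 CPM). Nxph1 (143 and 344 CPM) and Fgf12 (71.5 and 175 CPM) fell under 2-fold without dividing cells, with ratios of 0.72 and 0.65. Ndufb2, a gene of the mitochondrial respiratory chain, was at 35.7 and 106 CPM.

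A few extreme ratios rested on few cells. Mgat4c gave 1 UMI under the wild type label and 151 in 9 cells under the knockout label, 45.7% of them in 1 cell (log2 ratio 5.30, 2.80 to 10.6). Without the cell with most Mgat4c in each library the counts were 0 and 82, a log2 ratio of at least 2.81 with 3 counts per library in place of 0. Among cells with Y-linked UMIs only, its ratio was 0.87. All 61 UMIs of Ifitm1 under the wild type label were in 1 cell, against 6 UMIs in 5 cells under the knockout label. Without that cell the counts were 0 and 4 and no ratio was taken. Kctd16 gave 28 UMIs, all in 1 cell, and 25 UMIs, of which 23 were in 1 cell.

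**Figure D4:**
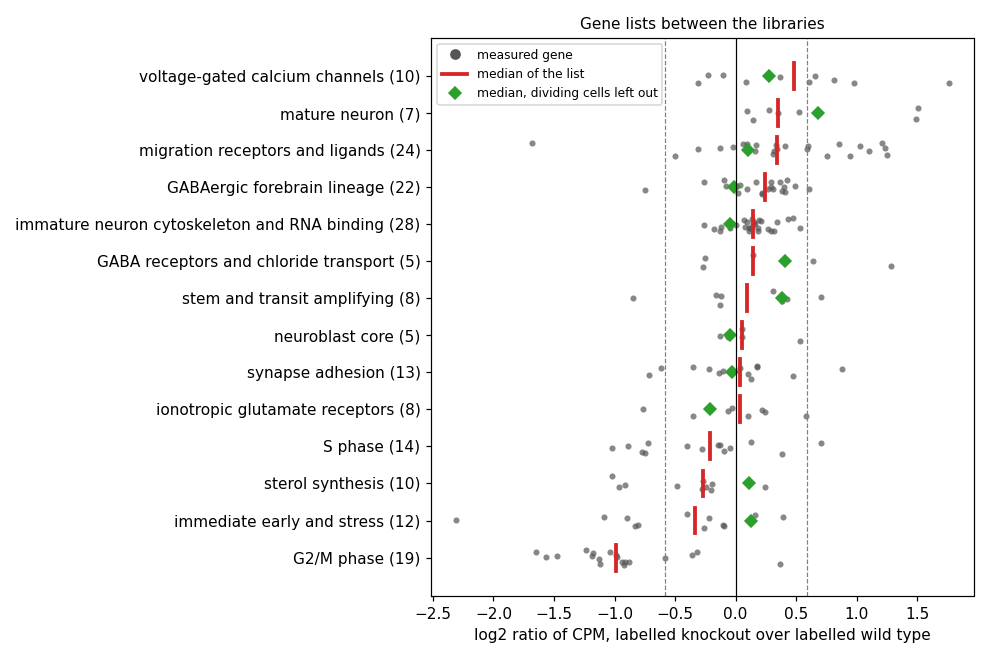
Log2 ratio of CPM between the libraries, knockout label over wild type label (x axis), of each measured gene (grey points) by list (y axis, number measured in brackets). Red lines are list medians, green diamonds medians without dividing cells where at least 5 genes were measured, and dashed lines mark 1.5-fold. The G2/M median was -0.98, and the medians of the immediate early and sterol lists passed from below to above 0 without dividing cells.

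Voltage-gated calcium channels bear on the genotype label. Cacna1h gave 1 UMI in 1 of 24 neuroblasts (3.57 CPM, Poisson interval 0.09 to 19.9) and 4 UMIs in 3 of 87 (3.73 CPM). The gene lies on chr17:25374285-25433783 on the minus strand of mm10. A difference in Cacna1h was not detectable at this depth. The other T-type genes were as scarce, with 1 and 3 UMIs of Cacna1g and 0 UMIs of Cacna1i in both libraries.

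High-voltage pore genes were present. Cacna1c, the Cav1.2 pore of L-type channels, was at 550 CPM in 17 of 24 cells and 965 CPM in 73 of 87 (log2 ratio 0.81, 0.56 to 1.06). Cacna1d, the Cav1.3 pore, gave 8 and 104 UMIs (log2 ratio 1.76, 0.73 to 3.01). Cacna1a, the P/Q-type pore, gave 13 and 98 UMIs (0.97, 0.13 to 1.93). The N-type pore Cacna1b was at 57.2 and 60.5 CPM, and the R-type pore Cacna1e gave 0 and 1 UMI.

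Auxiliary subunits were present as well. Cacnb2 was at 214 and 183 CPM, Cacnb4 at 118 and 110 CPM, Cacna2d1 at 107 and 138 CPM and Cacna2d3 at 114 and 92.2 CPM. Cacng4 (78.6 and 124 CPM) and Cacng5 (64.3 and 97.8 CPM), which also act on AMPA receptors, passed 1.5-fold upward. Cacng2 gave 5 and 40 UMIs, Cacnb3 4 and 28, Cacna2d2 2 and 17, and Cacnb1 1 and 8. In the whole list 5 of 10 measured genes passed 1.5-fold upward and 0 downward, against 9.98% and 12.3% of all genes. The median was 0.48. Without dividing cells 3 were higher and 2 lower, against 14.6% and 11.0% of all genes, with a median of 0.28.

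Transmitter receptors of immature neurons were expressed. The GABA-A subunit gene Gabrb2 was at 150 and 125 CPM and the AMPA subunit gene Gria2 at 386 and 455 CPM. Grin2b was at 150 and 143 CPM, Grin1 gave 2 and 17 UMIs and Grin2a gave 0 in both libraries. Of 8 measured ionotropic glutamate receptor genes 0 were higher and 1 was lower, with a median of 0.04. Of 5 measured GABA receptor and chloride transport genes, 2 were higher and 0 lower. Over all genes 9.98% were higher and 12.3% lower. Without dividing cells 1 of 5 GABA list genes and 2 of 6 glutamate receptor genes were higher, and 0 were lower in either list. The shares over all genes were then 14.6% and 11.0%.

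Sex-linked transcripts divided the neuroblasts under the knockout label. Under the wild type label 23 neuroblasts had UMIs of the Y-linked genes Ddx3y, Uty, Eif2s3y or Kdm5d and none of Xist, and 1 had neither. Under the knockout label the counts were 42 with Xist only, 37 with Y-linked UMIs only, 2 with both kinds and 6 without either. Cells with Y-linked UMIs only were 46.8% (35.5 to 58.4) of those with 1 kind alone. The share was 53.5% (42.4 to 64.3) in oligodendrocytes and 25.6% (21.4 to 30.1) in microglia. It was 17.8% in macrophages, 17.7% in T and NK cells, 19.9% in B cells and 15.4% (6.88 to 28.1) in endothelial cells. After thinning to 2000 UMIs it was 37.1% in neuroblasts, 45.3% in oligodendrocytes and 8.82% to 18.0% in those other host classes, microglia included.

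**Figure D5:**
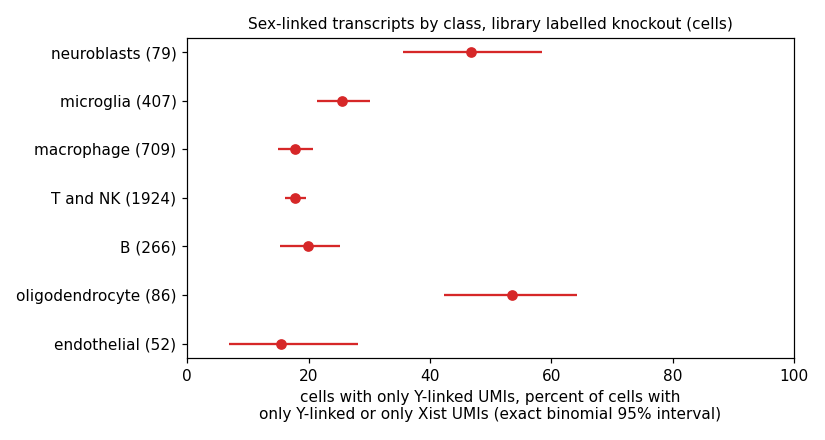
Share of cells with Y-linked UMIs only among cells with either Y-linked or Xist UMIs alone (x axis, with exact binomial intervals), by class (y axis, number of cells in brackets), in the library labelled knockout. The intervals of neuroblasts (35.5 to 58.4) and oligodendrocytes (42.4 to 64.3) lie above those of the other 5 classes.

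The share of neuroblasts differed by these marks. Among kept cells with Y-linked UMIs only, neuroblasts were 23 of 2077 (1.11%, 0.703 to 1.66) under the wild type label and 37 of 928 (3.99%, 2.82 to 5.45) under the knockout label. Among cells with Xist only under the knockout label they were 42 of 3940 (1.07%, 0.769 to 1.44). Host and tumour cells both enter these denominators.

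Several differences between the libraries were present within the Y-linked cells. Among these, G2 and M phase genes summed to 5180 CPM in 23 cells and 2715 CPM in 37, and migration genes to 9303 and 15012 CPM. Robo2 was at 976 and 2046 CPM, Erbb4 at 2511 and 4824 CPM, and Nrg1 at 532 and 247 CPM. In the 42 cells with Xist only, Robo2 was at 3040 CPM, Erbb4 at 5063 CPM and Nrg1 at 96.8 CPM. Dividing cells were 10 of 23 Y-linked neuroblasts (43.5%) under the wild type label. Under the knockout label they were 8 of 37 Y-linked (21.6%) and 10 of 42 Xist-bearing neuroblasts (23.8%).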

How the data were processed

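Single cells of dissociated brain and tumour tissue were captured with the 10x Genomics 3′ v3.1 kit, per the labels' protocols. The authors deposited sparse matrices of UMI counts. The file headers name Cell Ranger 7.1.0, and the submitters' processing notes add build mm10 and Seurat 5.0.2. Of 68886 features the 32285 mouse genes were used. 38 symbols shared by several gene IDs were kept apart by ID.

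Further steps used scipy 1.17.1, pandas 2.3.3, numpy 2.4.6, matplotlib 3.10.9 and scanpy 1.11.5 in Python 3.11.15. Scrublet's highest scores were called doublets, at 0.8% per 1000 cells. UMIs were summed over the neuroblasts of a library and scaled to CPM, with exact Poisson intervals. Ratios carry exact conditional intervals, and 3 counts stood in for 0. Genes with at least 50 UMIs over both libraries were measured. Shares carry exact binomial intervals. These intervals cover counting error only, and 279771 and 1073698 neuroblast UMIs set the precision. The computation was tested on simulated Poisson counts, which leave out the spread between cells.

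Genes named between libraries are the 12 highest and 12 lowest log2 ratios with at least 100 CPM in the higher library and at least 20% of every reference class of 50 or more cells there. Mitochondrial, ribosomal protein and sex-linked genes were among those left out. From each list the rule named the genes that mark or select the cells, the 4 with the highest CPM and the 4 with the largest differences, and all calcium channel genes. Some genes that these rules name are not reported here. Further list members were named for their known role after their values were seen. The members and lists were chosen with earlier results of these data known. Alternatives varied the selection, doublets, cell filters, sex-linked marks, scaling, cell weighting, thinning and count minimum, and 4 that leave out single cells were chosen after seeing the data.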

Additional observations from a re-analysis of the deposited data

Results flagged for a closer look

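The reference used for counting also holds human genes, although no human cells are labelled. Neuroblasts held 67 UMIs assigned to human genes under the wild type label, in 23 of 24 cells, and 281 under the knockout label, in 83 of 87 cells. Scaled to 1000000 mouse UMIs this is 239 and 262, against 146 and 191 in all kept cells. They were noticed because these features lie outside the measured genes. The source of these UMIs was not tested, and no result uses them.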

How the results depend on the processing

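No paired analysis was possible because each group is 1 library, and for the same reason no replicate could be left out in turn. The share of neuroblasts under the knockout label was 3.99% among cells with Y-linked UMIs only. The numbers of genes at least 2-fold higher and lower were 63 and 93 among those cells, 495 and 412 at a minimum of 20 UMIs per gene, and 23 and 12 at a minimum of 200 UMIs. Fewer or more genes are tested under these settings. Without dividing cells, 68 genes were lower. No value changed sign past a threshold under any alternative run. The dividing share moved by less than its interval in all 24 recomputations, staying between 36.4% and 43.5% under the wild type label and between 17.9% and 22.6% under the knockout label. Of 400 recomputed log2 ratios of named genes, 391 kept their side of 2-fold and 9 fell under it. Those 9 belong to Mgat4c, Fgf12, Syt1, Nxph1, Robo2 and Cenpe. With 24 cells under the wild type label, 1 cell can set the level of a gene found in few cells.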
